A study of Mus musculus with 3 samples.

Results

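A set of 10 genes of tendon and of the tenascin family were followed in mesenchymal cells of ectopic masses grown in outbred CD1 mice and taken 5 days after implantation. They were the transcription factor genes Scx and Mkx, the tendon gene Tnmd, the proteoglycan genes Fmod and Kera, the tenascin genes Tnc and Tnn, and the matrix genes Thbs4, Cilp and Cilp2. The 10 genes were listed by name, and all 10 were found among the 31053 genes of the count files. There were 3 single-cell RNA libraries, 1 for each group. In the antibody group the mice carried an implant of Matrigel, a gel of basement membrane proteins, mixed with recombinant human BMP2, and received a neutralizing antibody to activin A by the systemic route. The IgG group had the same BMP2 implant and systemic control IgG from non-immunized animals. The Matrigel group had the gel without BMP2, and no IgG is named for it, so an effect of BMP2 and one of IgG cannot be told apart in any comparison with it. Activin A is a dimer of the protein encoded by Inhba. No source used here gives the number, sex or age of the mice behind each library.

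Tendon cells are set apart early in development by scleraxis, the basic helix-loop-helix factor encoded by Scx, which binds E-box motifs, and later by mohawk, the homeobox factor encoded by Mkx. Both act upstream of matrix genes and of Tnmd, which encodes tenomodulin, a transmembrane glycoprotein of maturing tendon cells. Signals of the TGF-beta family, to which activins belong, induce Scx in limb mesenchyme. Fibromodulin and keratocan, from Fmod and Kera, are small leucine-rich proteoglycans that bind collagen fibrils. Tenascin-C is a glycoprotein of developing tendon and of wounds, while tenascin-N, also called tenascin-W, is a relative found in periosteum and forming bone. Thrombospondin 4 takes part in the matrix of tendon and muscle, and the cartilage intermediate layer proteins encoded by Cilp and Cilp2 are matrix proteins of cartilage and other connective tissue.

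Mesenchymal cells were defined as cells in which Col1a1, Col1a2 and Col3a1 together gave at least 1% of the unique molecular identifiers (UMIs, each a captured RNA molecule). The antibody library had 592 such cells of 5682, the IgG library 1478 of 5674 and the Matrigel library 1982 of 8542. They held 12750464, 26943485 and 18832469 UMIs in that order, with medians of 19186.5, 17191 and 8752.5 UMIs per cell. The name of the class was checked against markers. All 8 mesenchymal markers were seen in at least 25% of the cells in each library, against 1 of 7 macrophage markers in each. The same was true of 0 of the endothelial, Schwann, skeletal muscle and adipocyte markers. Of 7 pericyte and smooth muscle markers, 1 was seen in that share of IgG cells and 0 in the antibody and Matrigel libraries. The IgG library stood apart in showing 4 of 8 chondrocyte markers in that share of cells, and Col9a1, Matn1 and Hapln1 were at 0 in the Matrigel library. Chondrocyte markers summed to 666 CPM (a gene's UMIs scaled to the same total in each sum of cells) for antibody cells, 3239 for IgG cells and 1.54 for Matrigel cells. Macrophage markers summed to 113, 126 and 207 CPM, and pericyte and smooth muscle markers to 72.4, 116 and 49.6 CPM. Sox10 and Myog, which define Schwann cells and differentiating muscle cells, were at 0 in all 3 libraries. Other markers of these lists were present, with sums of 9.33, 24.35 and 10.1 CPM for Schwann markers. Skeletal muscle markers summed to 5.96, 8.09 and 4.41 CPM. The part of these other cells in the results was not tested. Each pair of libraries shared between 6 and 18 cell barcodes.

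With 1 library per group there is no replicate and no test, and all values compare these libraries and not the conditions in general. Intervals are 95% intervals for counting error only. Ratios are ratios of CPM, and a gene was called higher or lower at a ratio of 1.5 or more in either direction with at least 10 UMIs in either sum. The 3 comparisons share libraries, so they are not independent of each other.

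Scx was high in the IgG library and low in both others. The antibody library had 99 UMIs or 7.76 CPM (6.31 to 9.45), the IgG library 1043 UMIs or 38.7 CPM (36.4 to 41.1) and the Matrigel library 97 UMIs or 5.15 CPM (4.18 to 6.28). The antibody library was 4.99-fold lower than the IgG library and 1.51-fold higher than the Matrigel library, the second ratio having an interval of 1.13 to 2.02 that reaches below the calling threshold. The IgG library was 7.52-fold (6.10 to 9.35) higher than the Matrigel library. Scx was seen in 9.46% of antibody cells, 29.8% of IgG cells and 2.32% of Matrigel cells. Because cells differed in depth, each was also thinned to 2000 UMIs, leaving out 36, 66 and 147 shallower cells, and the shares then were 1.26%, 6.30% and 0.545%. Leukocytes, which should lack Scx and had medians of 3472, 3601.5 and 3254 UMIs, showed it in 0.144%, 0.214% and 0.140% of thinned cells. The few Scx molecules outside the IgG library sat in few cells, as 10 cells held 43.4% of Scx UMIs in the antibody library and 52.6% in the Matrigel library, against 12.7% in the IgG library. Without the 10 highest cells of each library the ratio of antibody to IgG was 0.132 and that of IgG to Matrigel 13.8.

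Scx (ENSMUSG00000034161, chr15:76457452-76459458, plus strand, GRCm38) lies inside the body of Bop1, a ribosome assembly gene on the minus strand at chr15:76452989-76477277. No source used here says how strand entered the counting, so some reads of both genes might be exchanged. Bop1 stood at 28.0, 43.1 and 31.5 CPM in the mesenchymal cells of the antibody, IgG and Matrigel libraries and at 30.7, 42.2 and 31.5 CPM in their leukocytes, where Scx was at 0.598, 1.05 and 0.562 CPM. Bop1 was at about the same level in both kinds of cells, and Scx was not. Both genes were highest in the IgG library, and an exchange of reads was not tested.

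Mkx and Tnmd, the other tendon regulators and markers, were close to the limit of detection. Mkx had 15, 46 and 4 UMIs in the antibody, IgG and Matrigel libraries, which is 1.18, 1.71 and 0.212 CPM. Its ratio of 0.689 (0.357 to 1.26) between the antibody and IgG libraries passed in neither direction, while it was 5.54-fold (1.77 to 22.9) and 8.04-fold (2.94 to 30.8) higher in them than in the Matrigel library, whose 4 UMIs of Mkx lie close to the 0.187 CPM of its leukocytes. Tnmd had 17, 83 and 54 UMIs, or 1.33, 3.08 and 2.87 CPM, and was lower in the antibody library than in both others, at ratios of 0.433 (0.241 to 0.735) to IgG and 0.465 to Matrigel. Those UMIs came from 10, 49 and 21 cells, and the ratio of IgG to Matrigel, 1.07, was 2.80 without the 10 highest cells of each library. Scx and Tnmd were seen together in 2, 12 and 3 cells, and Scx and Mkx in 5, 16 and 0.

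Fmod was the member with the widest gap between the IgG and Matrigel libraries. Antibody cells had 859 CPM (843 to 875), IgG cells 1571 CPM (1556 to 1586) and Matrigel cells 49.8 CPM (46.7 to 53.1). It was 1.83-fold lower in the antibody library than in the IgG library, and 17.3-fold and 31.5-fold higher in the antibody and IgG libraries than in the Matrigel library. After thinning, Fmod was seen in 48.9%, 78.2% and 5.01% of cells, against 0.577%, 2.69% and 0.0280% of leukocytes. Kera, the relative best known from the cornea, was all but missing, with 0 UMIs in the antibody library (upper limit 0.289 CPM), 1 in the IgG library and 9, in 5 cells, in the Matrigel library. It was not counted in any comparison.

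The tenascin genes were both well above the gel alone in the BMP2 libraries and differed less between antibody and IgG than Scx did. Tnc stood at 1623 CPM (1601 to 1645) in antibody cells, 2332 CPM (2314 to 2350) in IgG cells and 798 CPM (785 to 811) in Matrigel cells, ratios of 0.696 to IgG and 2.03 to Matrigel for the antibody library and 2.92 to Matrigel for IgG cells. The first of these lies just short of the threshold. Tnn stood at 756 CPM (741 to 772), 843 CPM (832 to 854) and 47.3 CPM (44.2 to 50.5), so the antibody library was at 0.897 (0.876 to 0.919) of the IgG level and 16.0-fold above Matrigel. After thinning, Tnn was seen in 49.8%, 64.5% and 4.47% of cells and Tnc in 59.7%, 85.0% and 23.4%. Leukocytes had Tnc in 1.59%, 6.11% and 1.40% and Tnn in 0.541%, 1.79% and 0.0839%.

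Thbs4 and Cilp ran the other way and were highest around the gel alone. Thbs4 had 23.2 CPM (20.7 to 26.0) in antibody cells, 9.72 CPM (8.58 to 10.98) in IgG cells and 115 CPM (111 to 120) in Matrigel cells. IgG cells had 11.9-fold less of it than Matrigel cells, and antibody cells had 2.39-fold (2.02 to 2.83) more than IgG cells. That last difference rested on few cells, as 10 of them held 81.1% of the antibody library's Thbs4 UMIs. Without the 10 highest cells of each library the ratio was 0.983. Cilp had 66.4 CPM in antibody cells, 101 CPM in IgG cells and 334 CPM in Matrigel cells, so it was 3.31-fold lower in IgG than in Matrigel and 1.52-fold lower in antibody than in IgG, just past the threshold. For Cilp, antibody against IgG was 0.659 as reported, and 0.717 without cells holding a Ptprc UMI, 0.692 under median-of-ratios scaling and 0.719 as a mean of per-cell CPM, all short of the threshold. Cilp2 had 5, 7 and 12 UMIs, and its 0.260 CPM in the IgG library was below the 0.376 CPM of the leukocytes there.

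**Figure D1:**
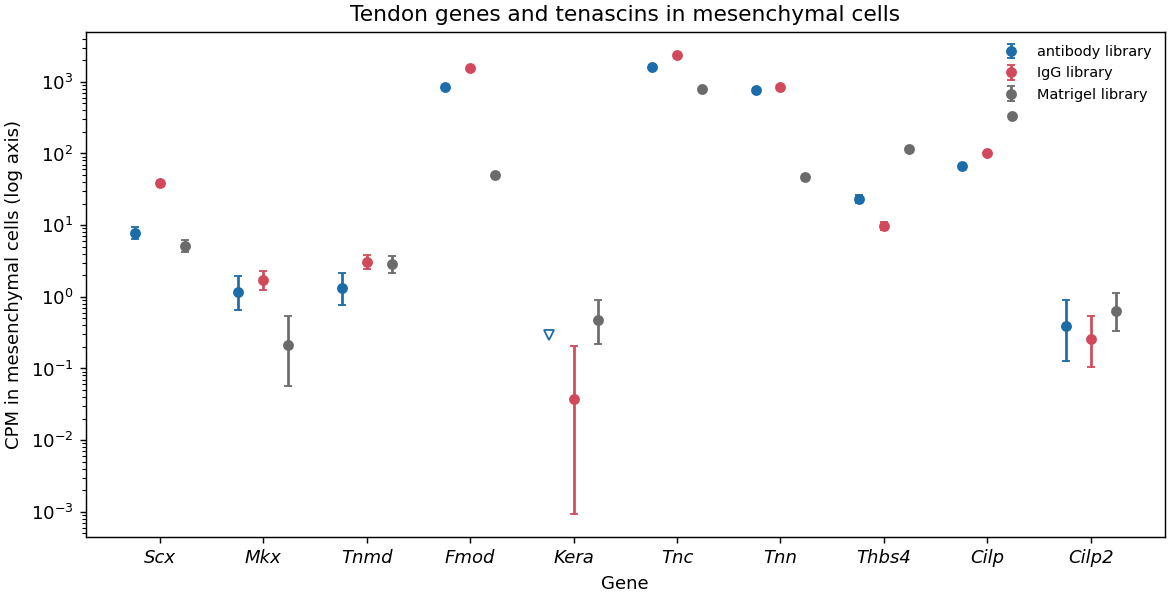
Level of each member gene in mesenchymal cells (CPM, log axis) in the antibody, IgG and Matrigel libraries, with 95% Poisson intervals that cover counting error only; the triangle is the upper limit for Kera, which had 0 UMIs in the antibody library. Scx was at 7.76 CPM for antibody, 38.7 for IgG and 5.15 for Matrigel, while Tnn was at 756 CPM for antibody, 843 for IgG and 47.3 for Matrigel.

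Sequence upstream of the start site is shown for the tenascin gene Tnc, which was higher in both BMP2 libraries than around the gel alone, and for Thbs4, which was lower in both. All 10 members are protein-coding in GENCODE M21 (GRCm38). Tnc spans chr4:63959785-64047015 and Thbs4 chr13:92751590-92794818, and Cilp lies at chr9:65265180-65280605. The sequences are from RefSeq (GRCm38.p6), which gave promoters for 8 of the 10 members, Scx and Mkx not among them. Each line gives the 250 bases before the start site, 5′ to 3′ along the gene's strand, with E-boxes (CANNTG, the motif class bound by basic helix-loop-helix factors) in capitals. The stretches are at chr4:64047016-64047265 for Tnc and chr13:92794819-92795068 for Thbs4, both on the minus strand.
Tnc: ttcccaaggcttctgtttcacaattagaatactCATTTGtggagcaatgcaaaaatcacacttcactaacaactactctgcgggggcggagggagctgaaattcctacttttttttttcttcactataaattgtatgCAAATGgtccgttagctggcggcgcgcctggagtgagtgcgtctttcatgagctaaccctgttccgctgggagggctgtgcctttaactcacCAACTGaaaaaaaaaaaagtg
Thbs4: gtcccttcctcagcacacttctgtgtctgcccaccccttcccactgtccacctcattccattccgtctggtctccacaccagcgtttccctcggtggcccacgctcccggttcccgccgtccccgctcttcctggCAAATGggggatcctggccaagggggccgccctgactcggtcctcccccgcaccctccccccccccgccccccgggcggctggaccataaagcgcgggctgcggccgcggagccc
Tnc held 3 E-boxes and Thbs4 had 1, and the form CAGATG, searched on both strands, occurred in neither stretch. The 5-base SMAD box CAGAC, also searched on both strands, occurred 2 times in Thbs4 but not in the Tnc stretch shown. RefSeq gives Tnc a second start site, whose stretch at chr4:64046937-64047186, not printed here, overlaps the first and held 2 E-boxes and 1 SMAD box. Over all 32851 promoter stretches of this length, 66.2% held CANNTG, 14.4% held CAGATG or its complement CATCTG, which is itself an E-box, and 42.2% held CAGAC or GTCTG. These matches describe letters and show no binding.

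Of 9 members measured in the IgG library against the Matrigel library, 5 were higher (Scx, Mkx, Fmod, Tnc and Tnn) and 3 lower (Thbs4, Cilp and Cilp2), where 16.6% and 21.1% of all 14336 genes measured were. Against the IgG library, 1 of 8 members was higher in the antibody library (Thbs4) and 4 lower (Scx, Tnmd, Fmod and Cilp), where 9.9% and 12.7% of all genes were. Against the Matrigel library, 5 of 9 were higher in the antibody library and 4 lower, where 11.6% and 22.1% of all genes were. Both lower counts against Matrigel include Cilp2, on few UMIs and with intervals that reach above 1. Its ratio was 0.408 (0.136 to 1.12) for the IgG library and 0.615 (0.170 to 1.88) for the antibody library. The median log2 ratio of the members was -0.57 for antibody against IgG, 0.59 for antibody against Matrigel and 1.55 for IgG against Matrigel, beside -0.08, -0.15 and -0.03 over all genes measured.

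Among 32 other tendon and ligament genes, both directions were seen in about equal number. Antibody against IgG gave 8 higher and 8 lower of 29 measured, where 9.9% and 12.7% of all genes were. IgG against Matrigel gave 8 higher and 10 lower of 30, where 16.6% and 21.1% of all genes were. The median log2 ratios were -0.14 and 0.18. Col11a1, a fibril collagen gene, had 178, 897 and 21.9 CPM in the antibody, IgG and Matrigel libraries, and Comp, for cartilage oligomeric matrix protein, had 54.7, 311 and 0.319 CPM. Both were highest in the IgG library by a wide margin, as Scx was. Egr1, an immediate early gene with a role in tendon, had 70.4, 28.0 and 141 CPM, and Tgfbr2, a TGF-beta receptor gene that tendon formation requires in mice, had 340, 148 and 804 CPM. These were lowest in the IgG library. Tppp3, a marker of the tendon sheath, had 225, 57.9 and 251 CPM, so the antibody library lay near the Matrigel library.

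The relatives of the members gave both directions as well. Of 5 other tenascin and thrombospondin genes measured, 2 were higher and 2 lower in IgG against Matrigel, and 1 was higher and 2 lower in antibody against IgG, with medians of -0.19 and -0.50. Tnxb, the tenascin gene of loose connective tissue, had 229, 64.5 and 776 CPM in the antibody, IgG and Matrigel libraries, an order opposite to that of Tnc and Tnn. Thbs1 had 374, 529 and 237 CPM. Other small leucine-rich proteoglycan genes gave 2 higher and 6 lower of 13 in antibody against IgG (median -0.34), among the lower Aspn with 645 and 1108 CPM and Lum with 594 and 928 CPM. Genes for receptors that bind tenascins gave 3 higher and 3 lower of 12 in the same comparison (median 0.21). They gave 3 higher and 9 lower of 15 in IgG against Matrigel (median -0.74). Beside these counts, 9.9% and 12.7% of all genes were higher and lower in antibody against IgG, and 16.6% and 21.1% in IgG against Matrigel.

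Inhba, Sox9 and Acta2 were then used to divide the mesenchymal cells. Inhba encodes the activin A subunit, Sox9 the master factor of cartilage that also marks progenitors of the tendon attachment, and Acta2 the smooth muscle actin of contractile fibroblasts. Inhba was seen in 59.0% of antibody cells, 73.5% of IgG cells and 11.5% of Matrigel cells, Sox9 in 50.5%, 78.9% and 23.6%, and Acta2 in 51.2%, 67.7% and 21.6%. Cells in which a marker was seen were deeper. With Inhba the medians were 26327 UMIs in cells with it and 11885 in cells without it in the antibody library, 18726 and 11028 in the IgG library, and 13692 and 8336.5 in the Matrigel library. The main ratios are therefore followed by the value found with every cell thinned to 5000 UMIs before the division, a depth chosen after the data had been seen that leaves 519, 1354 and 1586 cells.

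Inhba-detected cells carried more Fmod, Tnc and Tnn in all 3 libraries. Fmod stood at 1081 CPM in cells with Inhba and 153 CPM in cells without it in the antibody library, 7.05-fold and 3.30-fold after thinning. In the IgG library it stood at 1750 and 707 CPM, 2.47-fold and 1.65-fold after thinning. Fmod in the Matrigel library was at 78.1 and 43.2 CPM, 1.81-fold and 2.60-fold after thinning. For Tnn the ratios were 6.37, 2.82 and 5.09 (3.92, 1.98 and 3.08 thinned) in the antibody, IgG and Matrigel libraries, and for Tnc 4.04, 2.01 and 3.46 (2.85, 1.55 and 2.87 thinned). Thinned to 2000 UMIs, the IgG ratios were 1.29 for Fmod and 1.45 for Tnc, short of the threshold, and 1.63 for Tnn. Scx was 2.28-fold, 1.91-fold and 3.43-fold higher with Inhba, but 3.21-fold, 1.25-fold and 3.32-fold after thinning, so the IgG ratio fell short of the threshold there. The Scx ratio was 0.881 in the IgG library and 1.25 (0.184 to 7.42) in the antibody library when cells were thinned to 2000 UMIs, and 0.795 in the Matrigel library without the 10 highest cells.

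Thbs4 divided the libraries. In Inhba-detected cells it was 3.31-fold lower in the antibody library (14.9 and 49.5 CPM, with and without Inhba) and 4.33-fold lower in the IgG library (6.18 and 26.8 CPM), while in the Matrigel library it was 2.37-fold higher (217 and 91.7 CPM). The thinned ratios of 0.273, 0.427 and 2.48 had the same directions. Without the 10 highest cells the antibody ratio was 0.742. Cilp was lower with Inhba in the antibody and IgG libraries, at ratios of 0.557 and 0.241, and level in the Matrigel library at 0.991 (0.276, 0.276 and 1.30 thinned). The antibody ratio of Cilp was 0.805 without the 10 highest cells, short of the threshold. Counted over members, 5 were higher and 2 lower of 7 in the antibody library, where 19.6% and 17.8% of all genes were. The 5 included Mkx, on 13 and 2 UMIs, with an interval of 0.463 to 18.7. In the IgG library 4 were higher and 2 lower of 8, where 10.9% and 14.1% of all genes were. The Matrigel library had 5 higher and 1 lower of 7, where 9.17% and 15.5% of all genes were. The 1 lower was Tnmd, on 4 and 50 UMIs.

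Sox9 went with Scx most clearly in the antibody library. There Scx had 92 UMIs or 11.1 CPM in Sox9-detected cells and 7 UMIs or 1.57 CPM in the others, a ratio of 7.08 (6.50 thinned, on 16 and 6 UMIs). In the IgG library it had 41.3 and 24.96 CPM, a ratio of 1.66 (1.33 thinned), and in the Matrigel library 6.63 and 4.503 CPM, a ratio of 1.47 (0.730 thinned). At 2000 UMIs per cell only 7 Scx UMIs were left in the antibody library, 3 in 95 cells with Sox9 and 4 in 461 cells without it. These are 15.8 and 4.34 CPM, a ratio of 3.64 with an interval of 0.533 to 21.5. Fmod was higher with Sox9 in each library, at ratios of 2.56, 1.86 and 2.45 (2.42, 1.62 and 1.67 thinned), and in the antibody and IgG libraries it climbed with the amount of Sox9. In the antibody library Fmod stood at 426 CPM in cells without Sox9 and at 769, 930 and 1706 CPM in the lowest, middle and highest of 3 equal classes of cells with it, and in the IgG library at 914, 1285, 1851 and 2028 CPM. Tnc gave ratios of 1.90, 1.06 and 2.46 with Sox9 (1.61, 1.02 and 2.10 thinned), so it was level in the IgG library. Cilp went down along the same classes in the IgG library, at 201, 128, 78.7 and 29.0 CPM. Members higher and lower with Sox9 numbered 5 and 0 of 8 in the antibody library, 5 and 2 of 8 in the IgG library, and 5 and 0 of 7 in the Matrigel library. All genes gave 13.4% and 12.8%, 11.7% and 11.4%, and 10.5% and 9.25% in the same order. The higher members included Mkx, with intervals that reach below 1. It had 12 and 3 UMIs in the antibody library (0.581 to 11.9) and 43 and 3 in the IgG library (0.868 to 13.7).

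Acta2 drew the sharpest line in the Matrigel library. Scx had 89 UMIs or 14.5 CPM in its Acta2-detected cells and 8 UMIs or 0.631 CPM in the rest, 22.9-fold (27.6-fold thinned, on 26 and 4 UMIs). Tnn stood at 126 and 8.997 CPM, 14.0-fold (12.2-fold thinned), and Tnc at 1894 and 266 CPM, 7.13-fold (6.46-fold thinned). In the antibody library the same ratios were 3.13 for Scx (1.66 thinned, on 12 and 10 UMIs), 2.10 for Tnn (2.22 thinned) and 1.91 for Tnc (1.95 thinned). In the IgG library they were 2.24 for Scx (2.15 thinned), 1.20 for Tnn (1.17 thinned) and 1.25 for Tnc (1.30 thinned). Scx was therefore higher with Acta2 in each library, and the tenascin genes passed the threshold in the antibody and Matrigel libraries. Thbs4 was 1.58-fold and 3.93-fold higher with Acta2 in the antibody and Matrigel libraries and 2.33-fold lower in the IgG library (ratios 1.56, 3.17 and 0.640 thinned, in the order antibody, Matrigel, IgG). The IgG direction changed with the setting, to a ratio of 1.57 when cells were thinned to 2000 UMIs and to 1.02 without the 10 highest cells. Members higher and lower with Acta2 numbered 6 and 1 of 8 in the antibody library, 1 and 1 of 8 in the IgG library, and 6 and 0 of 7 in the Matrigel library. Of all genes, 13.9% and 15.8%, 6.63% and 11.7%, and 12.0% and 16.0% were, in the same order. The 6 of the antibody library included Tnmd, on 16 and 1 UMIs, with an interval of 1.175 to 317.1.

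**Figure D2:**
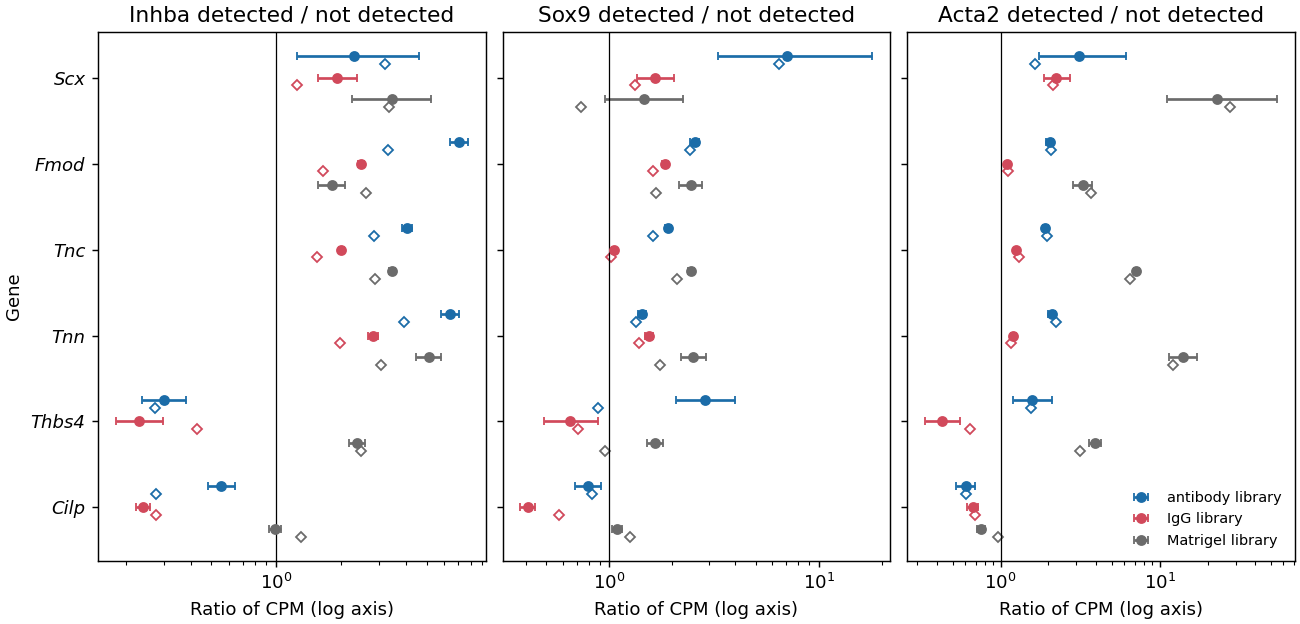
Ratio of each member's level in mesenchymal cells with a UMI of Inhba, Sox9 or Acta2 to that in cells without one (log axis), for each library; filled circles are ratios at full depth with 95% counting intervals and open diamonds those after thinning each cell to 5000 UMIs. Thbs4 lies below 1 for Inhba in the antibody and IgG libraries, at 0.302 and 0.231, and above 1 in the Matrigel library, at 2.37.

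Scx also increased with the amount of Acta2 in the cells that had it. In the antibody library it stood at 3.18 CPM in cells without Acta2 and at 6.76, 7.19 and 16.7 CPM in the low, middle and high class of cells with it. The IgG library gave 19.9, 25.2, 39.5 and 68.9 CPM, and the Matrigel library 0.631, 2.39, 4.81 and 37.2 CPM. The order was the same in the 3 libraries, though the low and middle classes of the antibody library lay within counting error of each other, and the highest class of the antibody library was below the class without Acta2 of the IgG library. For Tnn along classes of Inhba the antibody library gave 149, 656, 854 and 1345 CPM and the IgG library 336, 757, 951 and 1119 CPM. The highest class of the antibody library thus had more Tnn than that of the IgG library, with Inhba itself at 2536 and 1837 CPM in these classes. Classes were cut within each library and are not matched in marker level between libraries. Acta2 was at 1487, 2689 and 1408 CPM in the high Acta2 classes of the antibody, IgG and Matrigel libraries.

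**Figure D3:**
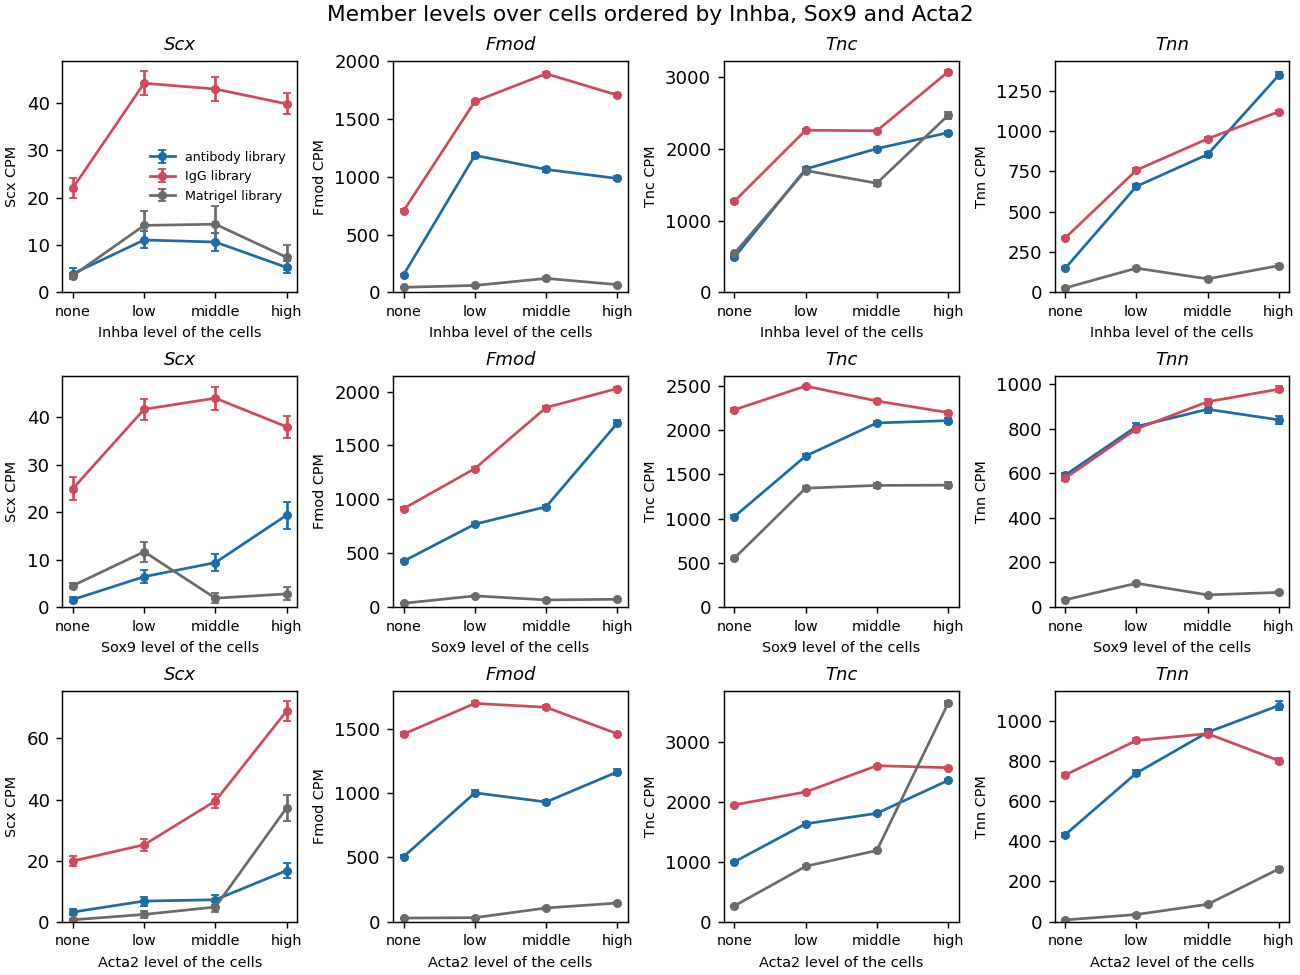
Levels of members (CPM) in mesenchymal cells without a marker and in the low, middle and high classes of cells with it, the last being 3 equal classes by the marker's CPM, for each library; bars are the square root of the UMIs and cover counting error only. Scx climbs with Acta2 in each library, to 16.7 CPM among antibody cells, 68.9 among IgG cells and 37.2 among Matrigel cells.

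Of cells sorted by all 3 markers at once, those with none of them held hardly any Scx. There were 168 such cells in the antibody library and 131 in the IgG library, with 0 Scx UMIs each (upper limits 2.09 and 3.59 CPM), and 1217 in the Matrigel library, with 6 UMIs. Cells with all 3 markers numbered 186, 727 and 59 and had Scx at 11.7, 47.4 and 16.4 CPM. Fmod in cells without any of the markers was at 16.4, 154 and 12.4 CPM, so the IgG library exceeded the others there too. Median depths of those marker-free cells were 10709, 6732 and 7634 UMIs.

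Since the libraries differed in how many cells had each marker, the library ratios were taken again within each kind of cell. These ratios were taken at full depth only, and the cells were not matched between libraries in depth or in the marker's level. Inhba-detected cells had medians of 26327, 18726 and 13692 UMIs in the antibody, IgG and Matrigel libraries. Scx remained lower in the antibody library than in the IgG library in all 6 kinds of cell. It was at 8.97 and 42.2 CPM in Inhba-detected cells of the antibody and IgG libraries (4.70-fold lower), at 11.1 and 41.3 CPM in Sox9-detected cells (3.72-fold lower) and at 9.93 and 44.6 CPM in Acta2-detected cells (4.49-fold lower). In the cells without the marker it was 5.61-fold lower for Inhba, 15.9-fold for Sox9 and 6.26-fold for Acta2, on 7 to 13 UMIs in the antibody library. Among Acta2-detected cells the ratio of the antibody library to the 14.5 CPM of the Matrigel library was 0.688 (0.505 to 0.935), which is not past the threshold.

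Tnn and Tnc behaved differently from Scx in this respect. In Inhba-detected cells Tnn was at 948 CPM in the antibody library and 949 CPM in the IgG library, a ratio of 0.999 (0.975 to 1.02), and in Acta2-detected cells at 909 and 879 CPM, a ratio of 1.04 (1.01 to 1.06). Without the marker the ratios were 0.442 for Inhba and 0.593 for Acta2. Tnc followed, with 0.776 and 0.385 in cells with and without Inhba, and 0.782 and 0.513 in cells with and without Acta2. For Fmod the antibody library was 1.62-fold lower in Inhba-detected cells and 4.61-fold lower in the rest. With Sox9 as the divider Tnn gave 0.946 and 1.02, so that gap did not appear there for Tnn. Tnc gave 0.828 and 0.459 in cells with and without Sox9, and Fmod 0.644 and 0.4665. Whether the difference between cells with and without a marker exceeds the variation between animals was not tested.

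**Figure D4:**
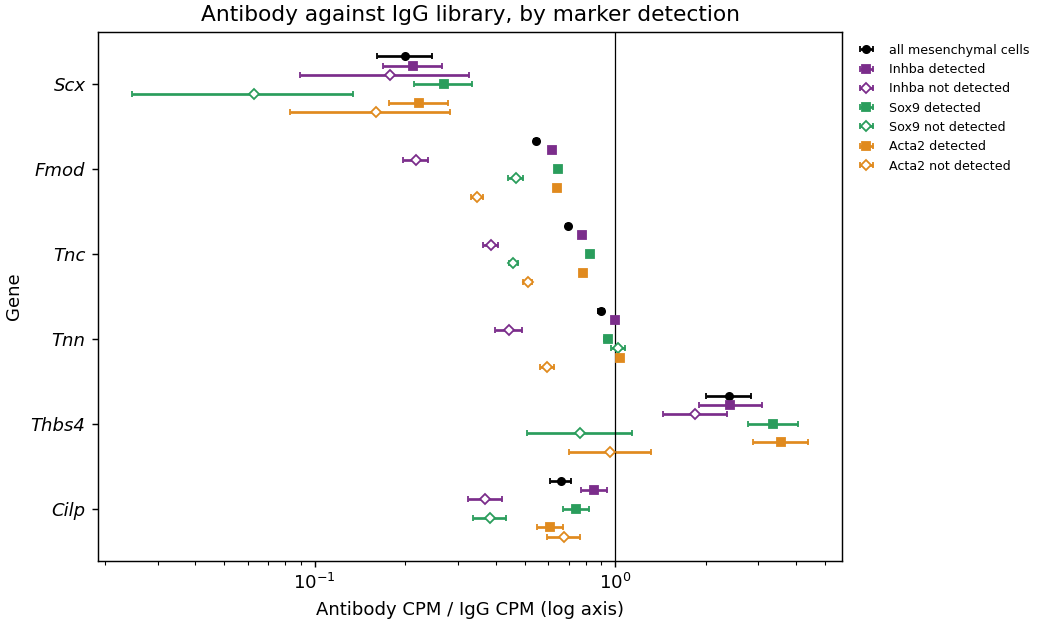
Ratio of member levels in the antibody library to those in the IgG library (log axis, 95% counting intervals) in all mesenchymal cells and in cells with (filled squares) or without (open diamonds) a UMI of Inhba, Sox9 or Acta2. Scx lies below 0.3 throughout, from 0.0628 to 0.269, while Tnn is at 0.999 in Inhba-detected cells and 0.442 in the others.

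Against the gel alone, the gap in Tnc was smaller in cells with a marker than in cells without it. IgG over Matrigel was 1.35 for Tnc in Inhba-detected cells and 1.29 in Acta2-detected cells, neither past the threshold, against 2.33 and 7.36 in the cells without the marker. In Sox9-detected cells the ratio was 1.73, past the threshold, against 4.04 in the rest. Fmod kept a wide gap, 22.4-fold with Inhba and 16.4-fold without. Tnn was 6.98-fold higher in Inhba-detected cells, and Scx 3.48-fold in Inhba-detected and 3.09-fold in Acta2-detected cells. Thbs4 was 35.2-fold lower in Inhba-detected cells and 3.42-fold lower in the rest. For the antibody library over Matrigel, Tnc was at 1.05 in Inhba-detected cells and 1.01 in Acta2-detected cells.

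The genes overlapped within cells in different ways. Fmod, Tnc and Tnn were all seen in 330 of 592 antibody cells (55.7%), 1212 of 1478 IgG cells (82.0%) and 62 of 1982 Matrigel cells (3.13%), and after thinning to 2000 UMIs in 34.9%, 55.0% and 0.981%. Of the cells with Scx, 55 of 56 in the antibody library and 430 of 440 in the IgG library had all 3 of these genes, against 20 of 46 in the Matrigel library. Thinned to 2000 UMIs, the counts were 5 of 7, 56 of 89 and 0 of 10. Scx cells of the Matrigel library still had more of each than the other Matrigel cells, with Fmod at 418 and 34.2 CPM, Tnc at 4698 and 633 CPM and Tnn at 409 and 31.9 CPM. Thbs4 was higher in them too, at 621 and 93.9 CPM. Thbs4 stood at 0.695 CPM in Scx-detected cells and 26.1 CPM in the others in the antibody library, on 1 UMI in the first, and at 7.77 and 10.8 CPM in the IgG library. About the same share of Thbs4 cells carried Cilp in each library, 17 of 34, 38 of 72 and 125 of 248. Over all mesenchymal cells Cilp was seen in 19.6%, 21.45% and 30.9%. After thinning to 2000 UMIs, 4 of 12, 7 of 18 and 51 of 138 Thbs4 cells carried Cilp, beside 8.45%, 9.28% and 21.2% of all cells.

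Across cells of at least 2000 UMIs, the members most like each other were the matrix genes. Fmod and Tnn had a Pearson correlation of 0.723 over 556 antibody cells, 0.748 over 1412 IgG cells and 0.241 over 1835 Matrigel cells, on log counts scaled to 10000 per cell. Tnc and Tnn had 0.751, 0.657 and 0.546. Among 10909 candidate genes, those most like Fmod in the IgG library after Tnn were C1qtnf3 (0.747) and Tgfbi (0.702), a gene named for its induction by TGF-beta. Tgfbi was also among the 3 most like Tnc (0.623) and Tnn (0.716). With Fmod, C1qtnf3 had 0.7055 in the antibody library and 0.478 in the Matrigel library, and Tgfbi 0.717 and 0.113. Tgfbi had 0.790 and 0.479 with Tnc and 0.767 and 0.370 with Tnn, in the same order. The genes most like Scx were Tagln (0.311), Myl9 (0.303), both of the contractile apparatus, and Col12a1 (0.301), a collagen of tendon. In the antibody library the values for these with Scx were 0.167, 0.0783 and 0.300, and in the Matrigel library 0.387, 0.217 and 0.257. Cilp was most like Eln (0.458), Mfap4 (0.443) and Wisp2 (0.409) in the IgG library, the first and second of which encode elastic fibre proteins. These had 0.230, 0.4535 and 0.303 with Cilp in the antibody library and 0.394, 0.649 and 0.558 in the Matrigel library. Cells of 1 library share its preparation, and weak values in sparse counts carry little weight, so these are descriptions.

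**Figure D5:**
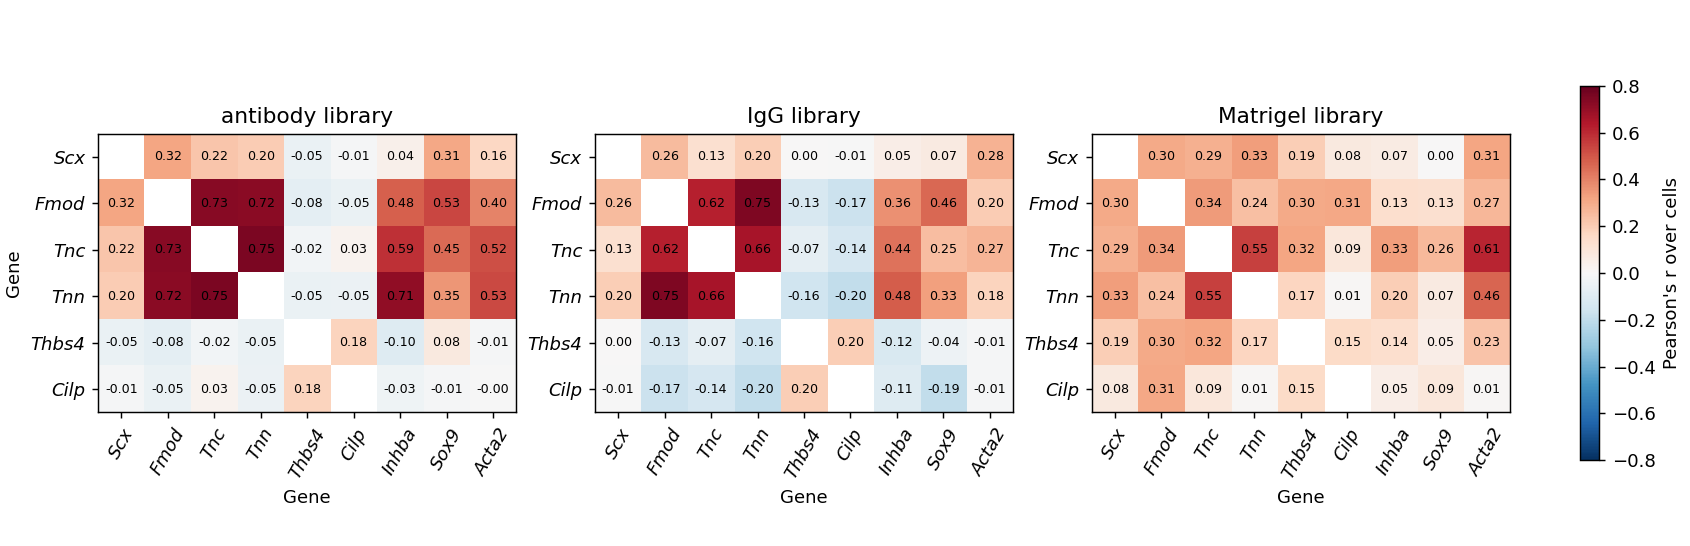
Pearson correlation across mesenchymal cells of at least 2000 UMIs between the members and the 3 markers, on log counts scaled to 10000 per cell, in the antibody (556 cells), IgG (1412) and Matrigel (1835) libraries. Fmod, Tnc and Tnn form a block in the antibody and IgG libraries, with Fmod and Tnn at 0.723 and 0.748, against 0.241 in the Matrigel library.

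Cells with cartilage collagen were set apart from the rest in the last comparison. Col2a1 reached 0.1% of UMIs in 18 antibody cells, 238 IgG cells and 0 Matrigel cells. In the IgG library Cilp was 43.2-fold lower in those cells than in the others, at 2.77 and 120 CPM, and Thbs4 was 6.98-fold lower, at 1.62 and 11.3 CPM. Scx stood at 30.7 and 40.3 CPM, Fmod at 2043 and 1480 CPM, Tnc at 1902 and 2414 CPM and Tnn at 924 and 828 CPM, none past the threshold. Among the 18 cells of the antibody library Fmod was at 1925 CPM, against 817 CPM in the other cells, and Scx at 14.4 CPM on 7 UMIs, against 7.502 CPM.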

How the data were processed

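Ectopic masses were profiled with droplet libraries of the 3' v3 kit from 10x Genomics, as the labels' protocols state. The authors used Cell Ranger 3.0.2 and build mm10, per the submitters' processing notes. For the annotation release and the calling of cells, the settings were not given in the sources used here. Values as deposited are raw UMI counts for each gene and barcode, per the file headers. The deposited barcode and gene lists hold no measurement.

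The antibody, IgG and Matrigel libraries held 6113, 6065 and 9249 barcodes with 38163880, 46317250 and 44252421 UMIs. A cell needed 300 genes, 500 UMIs and a mitochondrial share no higher than 15%, which removed 146, 107 and 26 barcodes. Scrublet in scanpy 1.11.5 marked 9, 7 and 4 cells with its automatic threshold, under 0.5%, so the highest scores were removed at 0.8% per 1000 cells instead (285, 284 and 681 cells). Raw counts were summed over mesenchymal cells and expressed as CPM. Ratios have exact conditional binomial, levels exact Poisson and shares Clopper-Pearson 95% intervals. All intervals cover counting error only. A gene with 0 UMIs is bounded against 3 counts. Leukocytes were cells under the collagen threshold with a Ptprc UMI. Genes were located with GENCODE M21 (GRCm38), in which all identifiers matched. Genes most like a member were the 3 with the highest correlation in the IgG library, for members seen in at least 100 cells there and candidates seen in at least 5% of cells. The ratio code was checked on simulated data. Alternatives were other collagen thresholds, cell filters, thinning depths, weightings, scalings and UMI minimums. The promoters of Fmod and Tnn are not reported here. The members, lists and tests were chosen with earlier results of these data known.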

Additional observations from a re-analysis of the deposited data

Results flagged for a closer look

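Thbs4 differed in direction between libraries when cells with and without a marker were compared, and these differences between libraries were not tested. Its ratio with Inhba was 0.302 among antibody cells, 0.231 among IgG cells and 2.37 among Matrigel cells. With Sox9 it was 2.85, 0.651 and 1.65, and with Acta2 1.58, 0.430 and 3.93. Thinned to 5000 UMIs, the ratios were 0.273, 0.427 and 2.48 with Inhba and 1.56, 0.640 and 3.17 with Acta2. With Sox9 they were 0.880, 0.712 and 0.958 at 5000 UMIs and 2.00, 1.15 and 1.69 at 2000 UMIs, so at neither equal depth did the libraries lie on opposite sides of 1. The Acta2 ratio at 2000 UMIs was above 1 in each library, at 3.59, 1.57 and 3.65. The 10 highest cells held 81.1% of Thbs4 UMIs among antibody cells, 53.1% among IgG cells and 28.1% among Matrigel cells.

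Scx in the antibody library over the Matrigel library was 1.67 in Sox9-detected cells and 0.348 in the others, on 7 UMIs in the antibody library. Tnmd in the IgG library over the Matrigel library was 0.485 in Acta2-detected cells and 2.48 in the others, on 15 and 12 UMIs. Both pairs run in opposite directions, and neither difference was tested.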

How the results depend on the processing

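No paired analysis was possible because each group has 1 library, and for the same reason no replicate could be left out. Of 192 alternative values of the 15 counts of members, 172 stayed within 1.5 times the reported count. Of 1216 alternative values of single ratios, 918 moved by less than their interval, 287 moved further and 11 changed sides. A change of side was counted only for ratios called higher or lower. Crossings of 1 by other ratios were placed with the 918 or the 287, such as Scx with Sox9 in Matrigel (1.47, and 0.730 thinned to 5000 UMIs). The cause was not tested. The count of members higher in antibody against IgG was 0 without the 10 highest cells of each member and 2 with a minimum of 3 UMIs. Thinning to 2000 UMIs gave 3 members higher with Inhba in the antibody library and 1 in the IgG library, and 3, 0 and 3 with Sox9 among antibody, IgG and Matrigel cells. Thinning to 5000 UMIs gave 3, 2 and 3 with Sox9 in these libraries. Without the 10 highest cells, 3 members were higher with Inhba and 3 with Sox9 in the Matrigel library. Members higher with Acta2 in the IgG library were 2 at collagen thresholds of 0.5% or 2%, without Ptprc cells, without Col2a1 cells and at either thinning, and 3 without the 10 highest cells or by mean CPM per cell.

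Single ratios called higher or lower changed sides as follows. Without the 10 highest cells they did so for Thbs4 in antibody against IgG (0.983), Scx with Inhba in Matrigel (0.795), Thbs4 with Sox9 in IgG (2.90) and Thbs4 with Acta2 in IgG (1.02). Thinning to 2000 UMIs did so for Scx with Inhba in IgG (0.881), Thbs4 with Sox9 in IgG (1.15), Tnmd with Sox9 in Matrigel (0.965) and Thbs4 with Acta2 in IgG (1.57). Thinning to 5000 UMIs did so for Thbs4 with Sox9 in antibody (0.880) and Matrigel (0.958), and mean CPM per cell for Thbs4 with Sox9 in IgG (1.18). Scaling by the median of gene ratios shifted antibody against Matrigel by -0.12 on the log2 scale, where the ratio of Scx became 1.64. That ratio, 1.51 as reported, ended between 1.46 without Col2a1 cells and 2.20 by mean CPM per cell. Depth limits Mkx, Tnmd, Kera and Cilp2, with fewer than 100 UMIs per library.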

Other observations

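Thbs4 and Cilp differed between the libraries in the few cells with Tnmd. In the antibody library the 10 Tnmd-detected cells had Thbs4 at 167.5 CPM on 57 UMIs, against 19.3 CPM in the others. They had Cilp at 35.3 CPM on 12 UMIs, against 67.3 CPM. The highest antibody cell held 49 Thbs4 UMIs, and how the 57 were spread over the 10 cells was not examined. In the Matrigel library the 21 cells with Tnmd had Thbs4 at 858 CPM and Cilp at 1011 CPM, against 105 and 324 CPM in the cells without it. Those 21 cells held 224 Thbs4 UMIs and 264 Cilp UMIs, against 1948 and 6016 in the rest. In the IgG library, Tnmd-detected cells had Thbs4 at 1.79 CPM on 2 UMIs and Cilp at 34.1 CPM on 38 UMIs, against 10.1 and 104 CPM in the others. Of the 9 Kera UMIs of the Matrigel library, 5 came from 1 cell, among its 54 cells with Inhba and without Sox9 or Acta2. These genes and cells were picked after their values had been seen.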
